A study of Homo sapiens with 2 samples.

Results

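The miR-106b-25 and miR-106a-363 clusters are related groups of miRNA genes, and their products were examined in HepG2 cells, a human hepatocellular carcinoma line. The members were chosen by name, as hsa-miR-106b-5p, hsa-miR-106b-3p, hsa-miR-93-5p and hsa-miR-25-3p from the first cluster, and hsa-miR-106a-5p, hsa-miR-18b-5p, hsa-miR-20b-5p and hsa-miR-363-3p from the second, and are written below without the species prefix. Of these 8 names, 7 matched spots on the arrays, among 2549 human miRNAs in all, and miR-106a-5p was not analysed here. The cells received the adenoviral vector labelled Ad-uc.372, named for the ultraconserved transcript uc.372, or the control adenovirus Ad-NC, and RNA was taken 48 h after both. The title of the deposited data names overexpression of the transcript, whereas the sample labels carry no suffix that tells an overexpressing from an inhibiting vector, so each array is named by its label. Each condition had 1 array. With 2 arrays in all, precision is limited by their number, and a difference could be neither tested nor checked against replicates.

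Animal miRNAs are cut from hairpin transcripts, and one strand of each hairpin is usually kept in the silencing complex while the other is discarded. Bases 2 to 8 of the kept strand, the seed, pair with target mRNAs. The miR-106b-25 hairpins lie within an intron of MCM7, which encodes a subunit of the replicative DNA helicase, and are transcribed with it. The miR-106a-363 hairpins are a separate copy on the X chromosome, and both clusters are paralogues of the miR-17-92 polycistron. The family is known for repressing cell-cycle inhibitors and pro-apoptotic genes such as CDKN1A and BCL2L11, and the MCM7 cluster is known to be raised in liver cancer.

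The mature sequences below were taken from RefSeq on GRCh38.p14, where all 8 names matched, and show which members the 2 clusters have in common by seed. Capitals mark the seed.
miR-106b-5p: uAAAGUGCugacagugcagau
miR-93-5p: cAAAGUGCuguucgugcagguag
miR-106a-5p: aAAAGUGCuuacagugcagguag
miR-20b-5p: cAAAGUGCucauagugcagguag
miR-25-3p: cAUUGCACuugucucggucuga
miR-363-3p: aAUUGCACgguauccaucugua
miR-18b-5p: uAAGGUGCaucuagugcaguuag
miR-106b-3p: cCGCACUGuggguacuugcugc
The AAAGUGC seed was shared by miR-106b-5p and miR-93-5p of the MCM7 cluster and by miR-106a-5p and miR-20b-5p of the X-linked cluster. The AUUGCAC seed was shared by miR-25-3p and miR-363-3p, 1 from each cluster. The seed of miR-18b-5p, AAGGUGC, had no counterpart in the MCM7 cluster, and that of miR-106b-3p, the opposite strand of the miR-106b hairpin, occurred in no other member. On the minus strand of chromosome 7, miR-106b-5p was at chr7:100094043-100094063, miR-93-5p at chr7:100093815-100093837 and miR-25-3p at chr7:100093571-100093592. The 4 miR-106b-25 products spanned 493 bases, and RefSeq placed their hairpins within MCM7. On the minus strand of the X chromosome, miR-106a-5p was at chrX:134170244-134170266, miR-18b-5p at chrX:134170084-134170106, miR-20b-5p at chrX:134169850-134169872 and miR-363-3p at chrX:134169382-134169403. These spanned 885 bases within the host gene MIR106AHG.

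Close relatives outside the chosen members differed from them by few bases. These sequences are shown because their miRNAs were measured on the same arrays and serve below as comparisons.
miR-17-5p: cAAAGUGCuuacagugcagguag
miR-20a-5p: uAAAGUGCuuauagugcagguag
miR-18a-5p: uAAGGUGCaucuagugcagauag
miR-92a-3p: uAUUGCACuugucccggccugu
Counted from 1 at the 5′ end, with the member's base first, miR-106a-5p differed from miR-17-5p by A1C alone and miR-18b-5p from miR-18a-5p by U20A alone. miR-20b-5p differed from miR-20a-5p by C1U and C10U. miR-25-3p differed from miR-92a-3p at 4 of 22 positions. The arrays identify probes by name without their sequences, so how far a probe binds such a relative was not tested.

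Both arrays held 140 spots for the members, 20 for each miRNA, spread over 17 probes. A spot's processed signal is its brightness after background subtraction, and a probe counts here as well above background if the software's flag was set for 50% or more of its spots on that array. The lowest signal among flagged spots, called the limit, was 21.1 on the Ad-NC array and 17.3 on the Ad-uc.372 array. Signals were put on the log2 scale relative to a reference on each array, the 75th percentile of the probes well above background on both, at 304.6 for Ad-NC and 356.5 for Ad-uc.372. A miRNA's log2 difference is Ad-uc.372 minus Ad-NC after this scaling, averaged over its probes measured on both arrays. Given with it is the spread (SD) of a probe's spots, combined over both arrays, which is technical only. This SD describes single spots, not the error of their mean. Of the liver markers, miR-192-5p, miR-194-5p and miR-148a-3p were measured on both arrays and miR-122-5p, the most characteristic miRNA of hepatocytes, stayed near background on both. None of 11 markers of blood, muscle, nerve, fibroblasts and endothelium was well above background on either array, and the mean of their brightest probe was 9.94 (Ad-NC) and 6.97 (Ad-uc.372).

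Of the members, 5 were well above background on both arrays: miR-106b-5p, miR-93-5p and miR-25-3p of the MCM7 cluster, and miR-18b-5p and miR-20b-5p of the X-linked cluster. miR-106b-3p and miR-363-3p were near background on both. None of the 5 reached a 1.5-fold difference (0.58 on the log2 scale), against 3.93% of the 229 miRNAs measured on both arrays, 2.62% lower and 1.31% higher. The values were lower with Ad-uc.372 for miR-18b-5p, miR-106b-5p and miR-93-5p, and higher for miR-20b-5p and miR-25-3p. Their median log2 difference was -0.15, beside -0.17 over all 229 miRNAs, whose differences had an SD of 0.29.

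**Figure D1:**
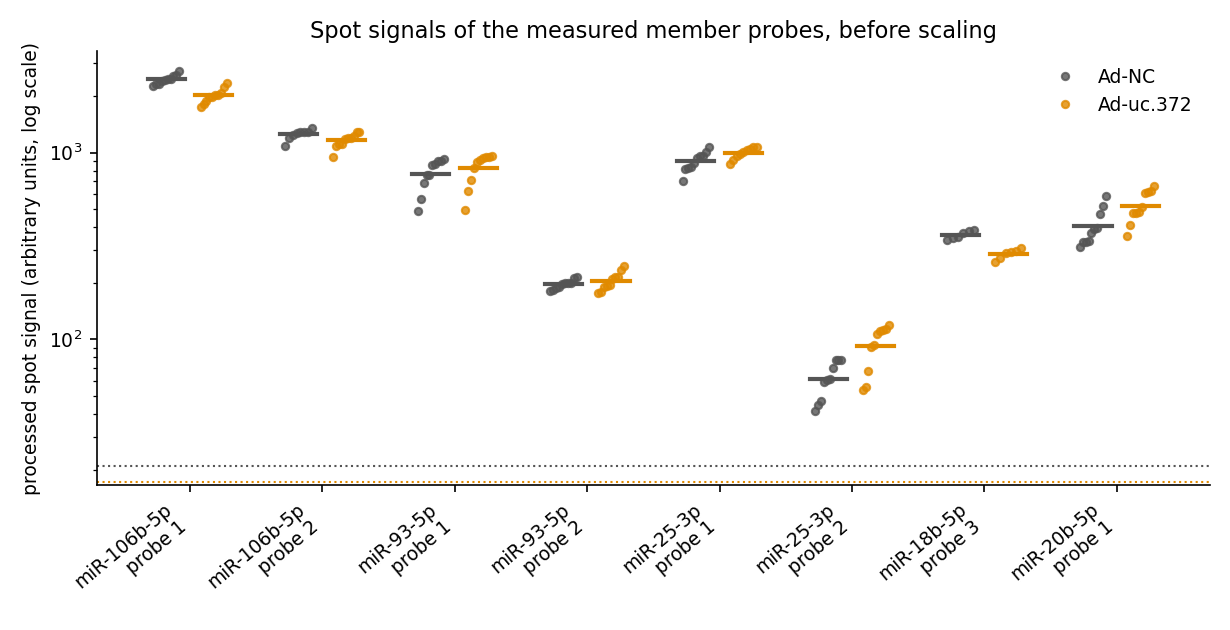
Processed signal of every spot (arbitrary units, log axis) for the 8 member probes measured on both arrays, before scaling, with Ad-NC in grey and Ad-uc.372 in orange. Horizontal bars are spot means and dotted lines the dimmest spot well above background on each array. The spots of miR-18b-5p do not overlap between the arrays, and those of the other probes do.

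miR-106b-5p, the first product of the MCM7 cluster and a known repressor of CDKN1A, had lower values with Ad-uc.372 on both of its probes. On the first probe the 10 spots with Ad-NC ran from 2279 to 2748 with a median of 2447, and the 10 spots with Ad-uc.372 from 1757 to 2359 with a median of 2011. Only 1 of these Ad-uc.372 spots reached the Ad-NC range, and none did after scaling, where the log2 difference was -0.52 ± 0.15 (combined spot SD). On the second probe the 8 spots with Ad-NC ran from 1079 to 1358 (median 1277) and the 10 with Ad-uc.372 from 952.1 to 1286 (median 1183). Here the arrays overlapped in 9 of the 10 Ad-uc.372 spots before scaling and in 2 after it, with a log2 difference of -0.34 ± 0.16. Averaged over both probes, miR-106b-5p was 1.34-fold lower, a log2 difference of -0.43, the 27th lowest of the 229. The direction turned in 1 of 15 alternatives, to 0.057 where all probes set the 75th percentile, which raised every miRNA by 0.48. Most of the 5893 probes were not well above background, so that percentile lies below the limits of the arrays.

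The miR-106b hairpin is printed with its mature strands in capitals, since only 1 of them was measurable (chr7:100093993-100094074, minus strand).
MIR106B: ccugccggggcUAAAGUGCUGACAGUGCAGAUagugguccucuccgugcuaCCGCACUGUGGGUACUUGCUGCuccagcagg
For the 3′ strand, miR-106b-3p, the 4 probes had mean signals from -6.20 to 5.96 with Ad-NC and from -3.79 to 2.81 with Ad-uc.372, and its brightest single spot was 17.3 with Ad-NC and 8.68 with Ad-uc.372. All its spots lay below the limit of their array, so no difference can be given for it.

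miR-93-5p, which shares the seed of miR-106b-5p and is known to target CDKN1A, lay close to the median of all miRNAs. Its first probe had spots from 489.4 to 919.2 with Ad-NC (median 808.1, n = 10 spots) and from 494.5 to 954.8 with Ad-uc.372 (median 901.6, n = 10 spots), so the arrays covered nearly the same range. On its second probe the spots ran from 182.1 to 214.8 (median 198.4) with Ad-NC and from 176.4 to 247.2 (median 203.9) with Ad-uc.372. After scaling, the log2 differences were -0.13 ± 0.45 and -0.17 ± 0.18, and 9 and 4 of the 10 Ad-uc.372 spots were at least as high as the lowest Ad-NC spot. The mean of -0.15 differed from the median of all measured miRNAs by 0.018, less than its combined spot SD of 0.34, and its sign also turned with the scaling, to 0.33 with the percentile over all probes, 0.078 without scaling, 0.032 with the total signal per miRNA and 0.042 where a single flagged spot sufficed.

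For miR-25-3p, which carries the AUUGCAC seed and is known to repress BCL2L11, the probes differed in sign, each within its spot SD. The first probe had spots from 700.9 to 1069 with Ad-NC (median 905.7, n = 10 spots) and from 866.9 to 1073 with Ad-uc.372 (median 1002, n = 9 spots), with a log2 difference of -0.075 ± 0.21 after scaling. The second probe had spots from 41.5 to 77.6 with Ad-NC (median 60.9) and from 53.9 to 120.0 with Ad-uc.372 (median 100.5), with a log2 difference of 0.34 ± 0.56. The averaged difference of 0.13 lay within its combined spot SD of 0.42. It was -0.075 from the brightest probe alone and -0.15 in the authors' deposited values. The medians of all measured miRNAs in these settings were -0.20 and -0.26, so miR-25-3p lay above the median in both. A lower difference on the brightest than on the dimmest probe was also seen for miR-106b-5p, and for 105 of the 157 miRNAs with several measured probes, with a median gap of -0.057 on the log2 scale.

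miR-18b-5p, a member of the miR-18 family and the only member with the AAGGUGC seed, had the lowest difference of the 5. It rests on 1 of its 3 probes, whose 6 spots ran from 341.3 to 384.2 with Ad-NC (median 362.5) and from 258.1 to 309.6 with Ad-uc.372 (median 291.0). No Ad-uc.372 spot was as bright as the dimmest Ad-NC spot, before or after scaling. After scaling the log2 difference was -0.57 ± 0.12, or 1.49-fold lower, just under 1.5-fold and the 9th lowest of the 229. Lower values without any overlap of spots on the measured probes after scaling were found for 10.9% of the measured miRNAs and higher ones for 0.873%. Among the 5 members such a gap was found for miR-18b-5p alone. This count is easier to meet with fewer probes and spots. miR-18b-5p had 1 measured probe with 6 spots per array. miR-106b-5p had 2 with 8 to 10 spots, and met it on the first. Of the other probes of miR-18b-5p, 1 had mean signals of 22.9 ± 7.91 with Ad-NC and 21.4 ± 6.53 with Ad-uc.372 (SD, n = 7 spots each). These were close to the limit, with 3 and 4 of the 7 spots above it. The last probe had mean signals of 0.20 and -0.53. In the deposited log2 values, miR-18b-5p had 3.66 with Ad-NC and 3.01 with Ad-uc.372, a difference of -0.65 that passes 1.5-fold. Of the 279 miRNAs measured there, 24 lower and 8 higher ones passed it, this one included. The median of all 279 was -0.26. From that median miR-18b-5p differed by -0.39, close to the -0.40 from the median in the reported setting. With spots averaged before log2 the difference of miR-18b-5p was -0.584, still just under 1.5-fold. Most other settings made it smaller, down to -0.087 with the percentile over all probes, -0.29 where a single flagged spot sufficed and -0.34 without scaling.

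miR-20b-5p, which has the seed of miR-106b-5p and lies between the miR-18b and miR-363 hairpins, had higher values with Ad-uc.372, within the spread of its spots. Its measured probe had 10 spots from 310.3 to 587.7 with Ad-NC (median 379.7) and 10 from 357.6 to 658.1 with Ad-uc.372 (median 495.8). After scaling all 10 Ad-uc.372 spots fell at or below the brightest spot with Ad-NC, and the log2 difference was 0.14 ± 0.42. The second probe was below the limit on average, with mean signals of 8.75 ± 3.53 (Ad-NC) and 13.5 ± 4.37 (Ad-uc.372; SD, n = 10 spots each). Without the filter on dim probes the averaged difference was -0.16, a value set by the limits of the arrays, to which all 10 Ad-NC spots and 8 of the 10 Ad-uc.372 spots of the second probe were raised, so no direction can be read from it.

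miR-363-3p, the last product of the X-linked cluster, had probe means that reached no more than 2.0 with Ad-NC and 1.02 with Ad-uc.372, over 2 probes. Its brightest spot was 6.38 with Ad-NC and 5.14 with Ad-uc.372, below the limit on both arrays. For this miRNA and for miR-106b-3p the deposited values were -4.71 with Ad-NC and -5.04 with Ad-uc.372, which are the fixed values of miRNAs that the software did not detect, and their gap is no measured difference.

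**Figure D2:**
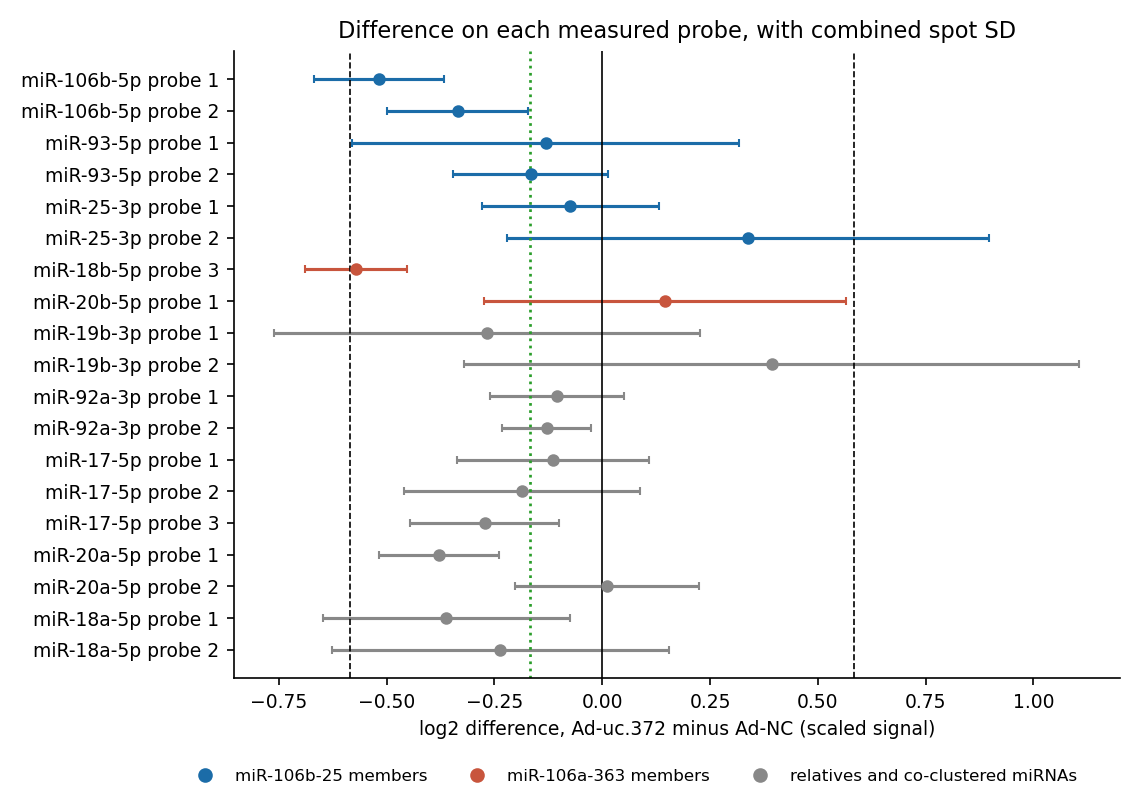
Log2 difference (Ad-uc.372 minus Ad-NC, scaled signal) on each probe measured on both arrays, with the combined spot SD as bars, for the miR-106b-25 members (blue), the miR-106a-363 members (red) and co-clustered or related miRNAs (grey). Dashed lines mark 1.5-fold and the green dotted line the median of all measured miRNAs, -0.17. Of the 8 member probes 6 lie below 0, and none lies past 1.5-fold. Of all 229 measured miRNAs, 169 lie below 0.

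The clusters were then set against each other. The median log2 difference was -0.15 over the 3 measured members of the MCM7 cluster and -0.21 over the 2 measured members of the X-linked cluster. The medians were 0.064 apart. With so few members, and with only the spread of spots as error, no error of this gap can be given. The range among members of the same cluster was 0.56 for the MCM7 cluster and 0.72 for the X-linked cluster. Of the 10 pairs of measured members, 5 differed by more than their combined spot SD. They were miR-18b-5p from miR-93-5p, miR-25-3p and miR-20b-5p, and miR-106b-5p from miR-25-3p and miR-20b-5p. The share of such pairs among all 229 measured miRNAs, whose differences had an SD of 0.29, was not counted. The count of pairs therefore does not set these members apart. Within the X-linked cluster miR-18b-5p lay below miR-20b-5p by 0.72, against a combined spot SD of 0.44. Of these 5, the gap between miR-18b-5p and miR-25-3p alone stayed beyond its spot SD in every setting tried. The SD used for this was that of the reported setting throughout. In the MCM7 cluster miR-106b-5p lay below miR-25-3p by 0.56, against 0.45. The gap was 0.44 on the brightest probes and 0.40 in the authors' deposited values, both below 0.45. On the brightest probes alone the spot SDs were smaller, 0.15 for miR-106b-5p and 0.21 for miR-25-3p, and the deposited values have none. Normexp and quantile normalization also brought this gap below 0.45. The gap of miR-18b-5p to miR-93-5p fell within its SD with normexp, without a filter and where a single flagged spot sufficed, and that of miR-18b-5p to miR-20b-5p without a filter. Among the measured members with the AAAGUGC seed, the log2 differences were -0.43 for miR-106b-5p, -0.15 for miR-93-5p and 0.14 for miR-20b-5p. miR-106b-5p and miR-20b-5p, 1 from each cluster, differed by -0.57 against a combined spot SD of 0.45. With quantile normalization or without a filter they differed by less than that SD. miR-93-5p lay within the spot SD of both, though on the brightest probes its gap to miR-106b-5p was 0.39 against 0.38. Quantile normalization also took the gap between miR-106b-5p and miR-18b-5p beyond its SD, to 0.29 against 0.20.

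**Figure D3:**
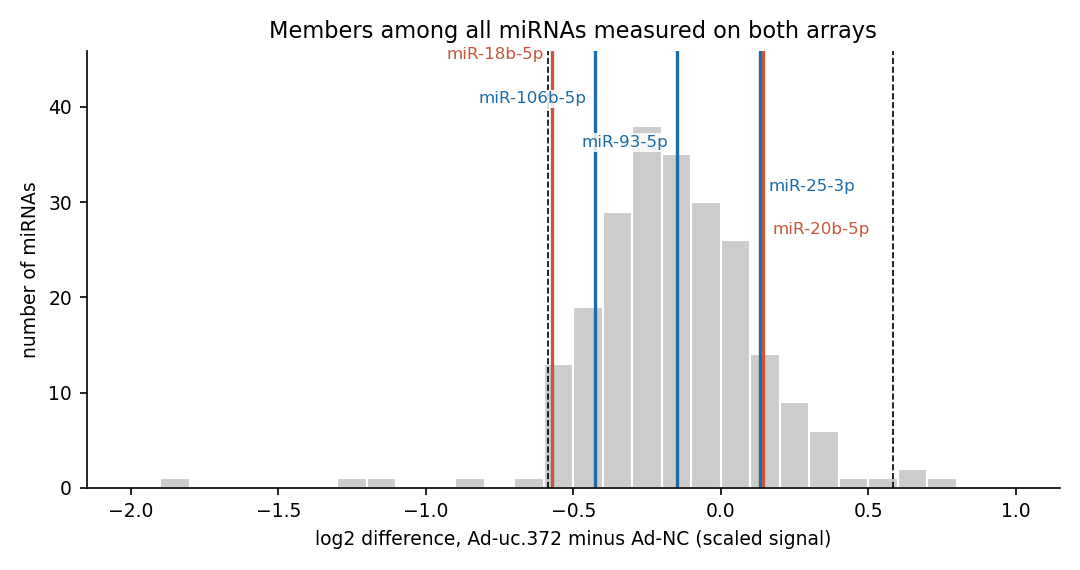
Number of miRNAs by log2 difference (Ad-uc.372 minus Ad-NC, scaled signal) among the 229 measured on both arrays, with the 5 measured members as vertical lines, blue for miR-106b-25 and red for miR-106a-363. Dashed lines mark 1.5-fold. miR-18b-5p lies just inside the lower line, and miR-25-3p and miR-20b-5p lie together at 0.13 and 0.14.

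The close relatives did not reach 1.5-fold either. miR-18a-5p, which differs from miR-18b-5p by U20A, had a log2 difference of -0.30 ± 0.34, lower on both of its probes. miR-18b-5p lay below it by 0.27, within the combined spot SD of 0.36. miR-20a-5p had -0.18 ± 0.18, and miR-20b-5p lay above it by 0.33, within 0.46. miR-92a-3p, made both by the X-linked cluster and by miR-17-92, had -0.12 ± 0.13, and miR-25-3p lay above it by 0.25, within 0.44. miR-17-5p, the nearest relative of miR-106a-5p, had -0.19 ± 0.23 over 3 probes. Each of these gaps thus lay within the spread of single spots. That spread is not the error of a mean, so it shows neither that the pairs changed alike nor that they differed.

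Other products of both clusters gave few measurements. Of the 10 listed, 8 were near background on both arrays, with probe means from -5.23 to 10.2. These were the opposite strands of miR-93, miR-25, miR-106a, miR-18b, miR-20b and miR-363 and the 5p strands of the X-linked miR-19b and miR-92a hairpins. The exceptions were miR-92a-3p and miR-19b-3p, which are also made by the miR-17-92 hairpins. miR-19b-3p had a log2 difference of 0.063 ± 0.61, with -0.27 on its first and 0.39 on its second probe. Of the 8 relatives by seed outside the clusters, 3 were measured, all with lower values, as had 169 of all 229 measured miRNAs, and none past 1.5-fold. Their median was -0.19. With the percentile over all probes, which lies below the limits and adds 0.48, all 3 were higher instead. Without scaling, which adds 0.23, miR-17-5p and miR-20a-5p were also higher and miR-18a-5p stayed lower. The others, miR-519d-3p, miR-526b-3p, miR-92b-3p, miR-32-5p and miR-367-3p, were near background on both arrays.

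**Figure D4:**
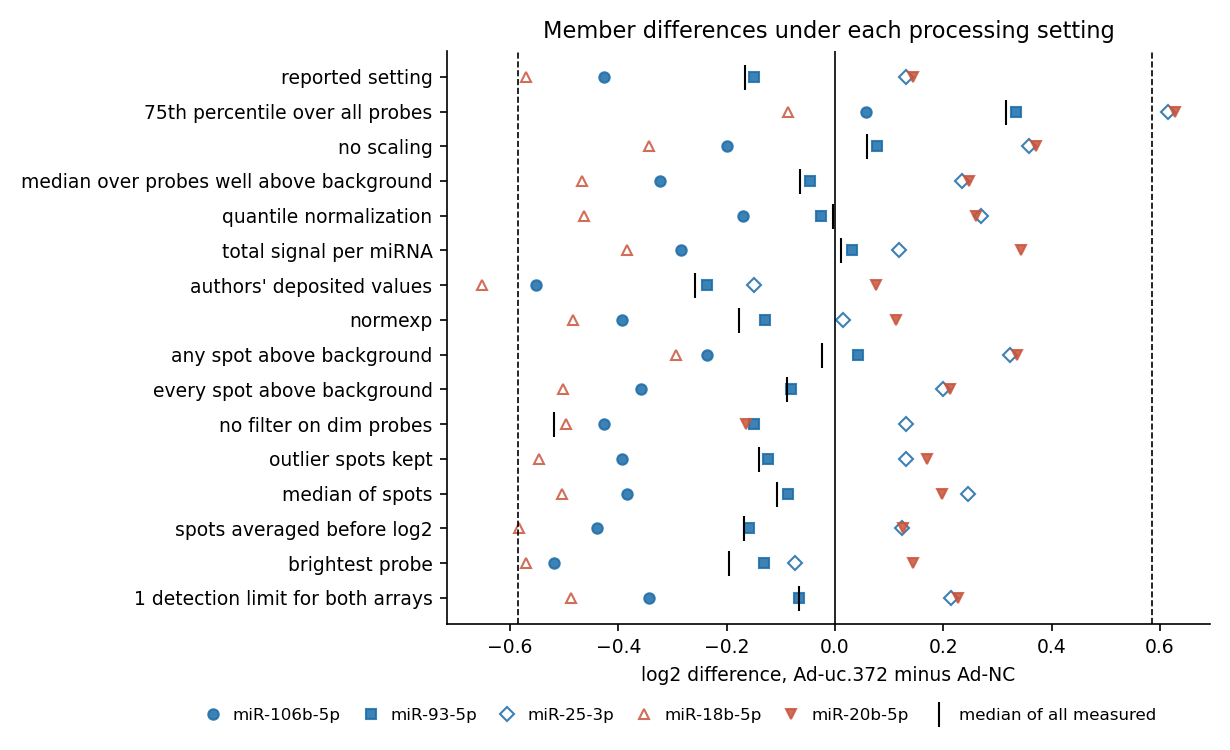
Log2 difference (Ad-uc.372 minus Ad-NC) of the 5 measured members under the reported setting and 15 alternatives, in blue for miR-106b-25 and red for miR-106a-363. Black bars mark the median of all miRNAs measured under that setting and dashed lines 1.5-fold. miR-18b-5p is the lowest of the 5 throughout, though 5 of the alternatives shift all members alike and cannot change their order.

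Of the 15 alternatives, 5 moved all members by the same amount and so left their order as it was: the percentile over all probes, no scaling, the median, every spot above background and 1 detection limit. The total signal per miRNA and the authors' deposited values also differ by a constant, which leaves 10 distinct sets of gaps between members, the reported one included. In these 10, miR-18b-5p lay below miR-106b-5p, and miR-106b-5p below miR-93-5p. The sets come from the same 2 arrays and are no replicates. The gap between miR-20b-5p and miR-18b-5p ran from 0.33 to 0.73, with the lowest value in the setting without a filter, where limits stand in for dim spots.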

How the data were processed

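The members and lists were chosen with earlier results of these data known. The array was Agilent's human miRNA Microarray, V21.0, with Cy3 as its only dye, and both arrays may have shared a slide and a scan. The authors made the deposited spot intensities with Agilent Feature Extraction, which subtracts background and does not normalize between arrays. The labels name version 10.10 and the file headers 11.5.1.1. The authors also deposited log2 values per miRNA, normalized with GeneSpring GX in a way that is not stated.

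Of 53144 spots per array, 50980 were not controls. Outlier spots (1273 with Ad-NC and 1657 with Ad-uc.372) were left out, and none was saturated. Spots under the array's limit were raised to it, log2 intensities were averaged per probe, and the 75th percentile was subtracted as described above. Well above background were 405 probes with Ad-NC and 449 with Ad-uc.372. The named miRNAs were all members, the other products of their clusters and their seed relatives. Probe means, quantiles and the normexp alternative used Python 3.11.15 (numpy 2.4.6, pandas 2.3.3) and R 4.3.3 (limma 3.58.1). The steps were tested on simulated data. The study's 1.5-fold threshold was used. Its t-test needs replicates and was not run.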

Additional observations from a re-analysis of the deposited data

How the results depend on the processing

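Of the changes given here, the cause was not tested unless the construction of a setting shows it. No paired analysis was possible because the conditions had 1 array apiece, and no array could be left out. A slide or scan block was not fitted, since 1 array per condition leaves nothing to estimate it from. The count of members past 1.5-fold, 0 in the reported setting, was 2 (miR-25-3p and miR-20b-5p, both higher) where the 75th percentile came from all probes, against 16.2% of the measured miRNAs, and 1 (miR-18b-5p, lower) with the authors' deposited values, against 24 lower and 8 higher of 279. It was 0 in the others, 2-fold included. The percentile over all probes lies below the limits of the arrays, and it added 0.48 to every difference. With it, miR-106b-5p came to 0.057, miR-93-5p to 0.33, miR-25-3p to 0.62, miR-18b-5p to -0.087 and miR-20b-5p to 0.63. The medians were then 0.33 for the miR-106b-25 and 0.27 for the miR-106a-363 members. Without scaling, which adds 0.23, miR-106b-5p was at -0.20 and miR-18b-5p at -0.34. Quantile normalization put miR-106b-5p at -0.17. Where any flagged spot sufficed, miR-106b-5p was at -0.24 and miR-18b-5p at -0.29. With the total signal per miRNA, miR-18b-5p was at -0.38. Every other change of a member value or cluster median over the 15 alternatives was smaller than its spot SD. The gap between the cluster medians stayed within 0.021 to 0.18. The median of all measured miRNAs rose by 0.16 with quantile normalization, 0.18 with the total signal, 0.14 where any flagged spot sufficed and 0.10 with the median or 1 detection limit, and fell by 0.35 without a filter on dim probes. Signal over background leaves miR-106b-3p and miR-363-3p without a difference.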
